A study of Mus musculus with 12 samples.

Results

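The genes described here are 44 factors that build ribosomes in the nucleolus, chosen by name for their known part in 7 functional roles, out of 49315 genes counted in mouse heart. All 44 were found in the data, and all 44 passed the filter on low counts, since none had fewer than 181 counts in any library. RNA was sequenced from the hearts of wild-type female C57BL/6J mice, with 3 libraries in each of 4 groups. Western diet postpartum hearts came from mice fed 45% of their energy as fat and 17% as sucrose, bred after 15 weeks of feeding and killed on day 1 after delivery. Control diet postpartum hearts came from mice bred in the same way on a diet with 10% of its energy as fat. Western diet nonpregnant and control diet nonpregnant hearts came from mice kept on these diets for the same time without breeding. The mice of every group were aged 27 to 29 weeks, so a postpartum heart had been through pregnancy and delivery and was not sampled during pregnancy. The series sets out to ask whether a diet-induced metabolic syndrome alters the remodelling of the heart that pregnancy brings about, and the comparisons here are of pregnancy on each diet, of diet in each pregnancy state, and of both together.

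Ribosomes are assembled in steps. RNA polymerase I copies the ribosomal DNA into a long precursor RNA, small nucleolar ribonucleoproteins guide its methylation and pseudouridylation, the small subunit processome cuts and folds the part that becomes the 40S subunit, and further factors assemble the 60S subunit and accompany both subunits to the cytoplasm. In the heart, ribosome production is known to rise when cardiomyocytes grow, as they do in the hypertrophy of pregnancy. Measured here were messenger RNAs of the factors, and neither ribosomal RNA nor ribosomes.

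In brief, Rrp12, a HEAT-repeat protein that in yeast takes part in the maturation and export of preribosomes, had the largest fold change of the 44 in any comparison. It averaged 40.5 ± 9.83 CPM in Western diet postpartum hearts and 21.5 ± 3.44 CPM in Western diet nonpregnant hearts (SD, n = 3 each), a fold change of 1.88. Nhp2, a core protein of the box H/ACA particles that guide pseudouridylation, rose in postpartum hearts when both diets were averaged, by 0.28 on the log2 scale. Both results depended on single libraries. Rrp12 no longer passed on the Western diet without postpartum replicate 1 or 3 or any 1 nonpregnant library of that diet. Nhp2 no longer passed in the averaged comparison without any 1 of 6 libraries. With all libraries, the remaining 42 factors passed edgeR's test in no comparison, and no factor fell past its threshold in any. DESeq2, an alternative test, also called Nolc1 and Nop2 for pregnancy averaged over diets. Most of the 44 had small positive fold changes after pregnancy, 88.6% on the Western and 75% on the control diet, against 49.3% and 48.2% of all genes. The medians were 0.12 (log2) on the Western diet and 0.05 on the control diet. Between libraries of a group the level of the median factor had an SD of 0.06 (log2).

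Total counts ran from 22754591 to 29492416 per library, and cardiomyocyte marker genes summed to 83462 to 98948 CPM in every library, as the tissue label has it. Here CPM are the counts of a gene scaled by library size, and they are compared within a gene only. Some libraries stood apart from their groups. Western diet postpartum replicate 2 had the lowest value of its group for 36 of the 44 factors, and its median factor lay 0.01 (log2) under the mean of all libraries, against 0.10 and 0.14 above it in replicates 1 and 3. Control diet nonpregnant replicate 1 had the highest value of its group for 28 of the 44. Control diet postpartum replicate 3 held adipocyte marker transcripts at a summed 267 CPM, against 18.9 to 32.5 CPM in the other 11 libraries. Results that rest on these libraries are therefore also given without them. The labels do not say outright that each library is a separate animal, so the p-values measure the spread between these libraries.

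Levels per length, in TPM, which scale the counts by the deposited gene length and then by library, spread over a 32.9-fold range. The deposited length counts every annotated exonic base of a gene, 11955 for Wdr12 and 10188 for Ncl against 1109 for Nop10. Which of these exons the heart transcripts hold was not tested, so the order of factors and roles depends on the length used. Npm1, nucleophosmin, a histone chaperone abundant in the nucleolus, was the highest with 96.4 ± 5.59 TPM, followed by the small box H/ACA protein Nop10 with 69.7 ± 2.05 TPM and nucleolin, Ncl, with 44.9 ± 2.67 TPM (SD over 12 libraries). The lowest were Wdr12 with 3.42 ± 0.178 TPM and Rrp1b with 2.93 ± 0.356 TPM, both 60S assembly factors. The median factor stood at 14.3 TPM, and 29 of 44 exceeded 10 TPM. By role, the median level was 27.6 TPM for the multifunctional nucleolar proteins, 22.8 TPM for the box H/ACA proteins, 15.4 TPM for the 60S assembly factors, 15.1 TPM for the late 40S factors, 13.6 TPM for the box C/D proteins, 13.1 TPM for the polymerase I factors and 7.73 TPM for the small subunit processome. Neighbours in the order of factors often overlapped: Rrn3 with 33.0 ± 1.67 TPM and Nhp2 with 32.1 ± 3.45 TPM differed by less than their SDs.

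**Figure D1:**
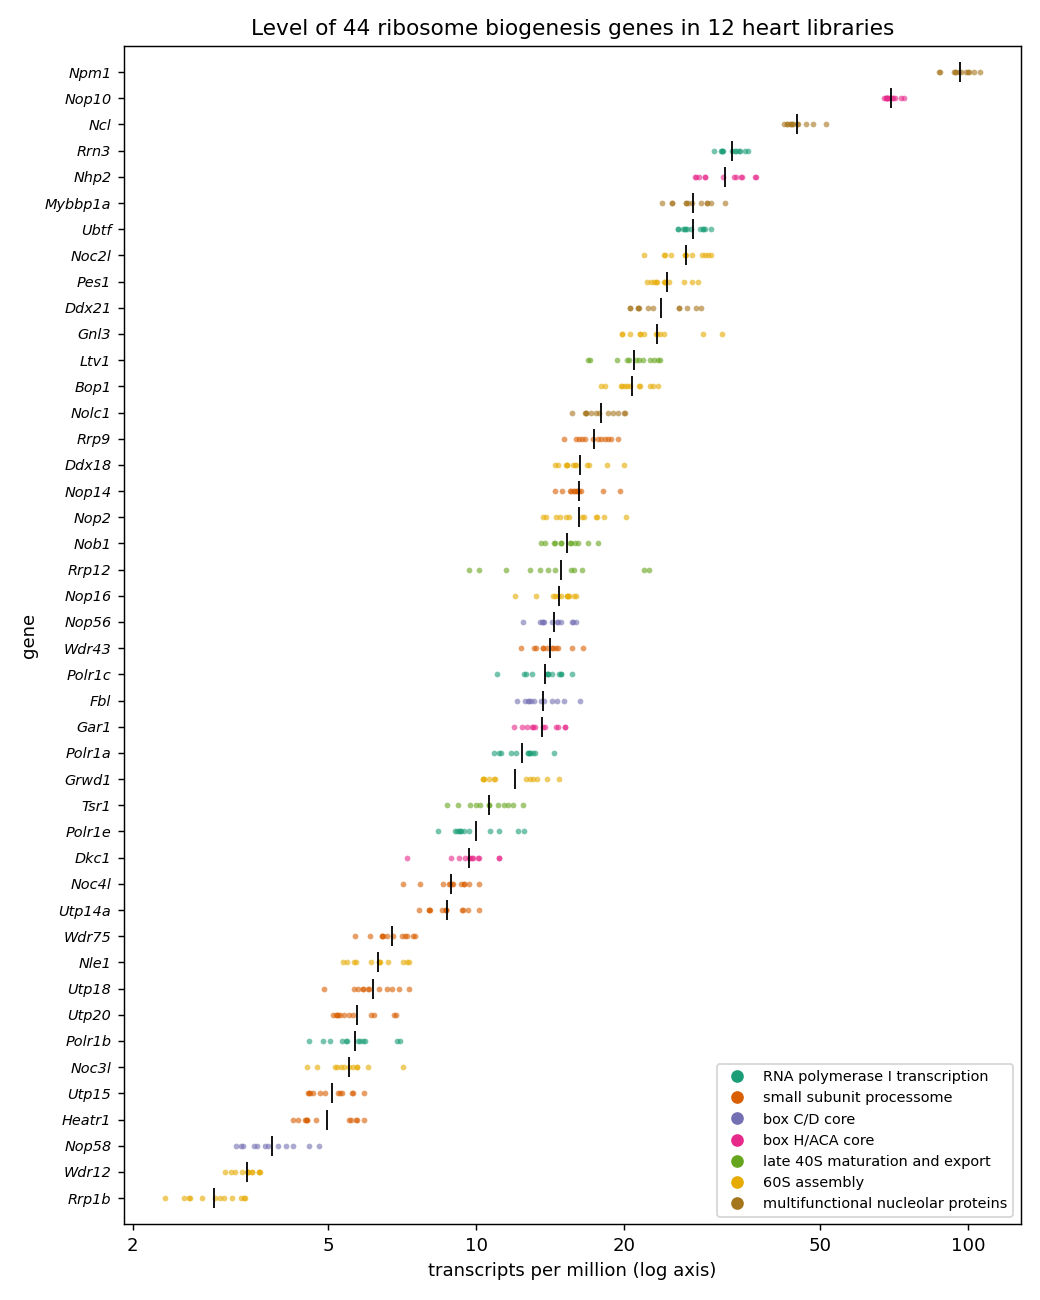
Level of each of the 44 factors in TPM (log axis), 1 point per library and a bar at the mean of 12 libraries, coloured by role. Npm1, Nop10 and Ncl stand above the rest, and Rrp12 has the widest spread between libraries.

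The factors varied little between hearts. The ratio of the highest to the lowest CPM over the 12 libraries was under 1.5 for 40 of the 44, with a median of 1.33. The 4 exceptions were Rrp12 with 2.45, the nucleolar GTPase Gnl3 with 1.66, the polymerase I subunit Polr1b with 1.62 and the pre-40S factor Tsr1 with 1.51. The least variable factor was Rrn3, which couples RNA polymerase I to the promoter, with 1.13. In all 4 the highest value lay in replicate 1 or 3 of the Western diet postpartum group.

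The first comparison was of pregnancy on the Western diet. Of the 44 factors, 1 rose past the threshold of an adjusted p of 0.05 (edgeR's quasi-likelihood test, Benjamini-Hochberg over 15476 genes), where 0.355% of all genes rose, and none fell, where 0.233% of all genes did. Fold changes were positive for 39 of the 44, or 88.6%, against 49.3% of all genes, with a median of 0.12 (log2) against 0.00 for all genes. At an unadjusted p under 0.05, 14 factors were higher, where 8.12% of all genes were, and Dkc1 was lower, where 6.62% were. Leaving out replicate 3 of the postpartum libraries turned the 14 into 9, and replicate 2 of the nonpregnant ones into 8. The 3 Western diet postpartum libraries lay above the 3 Western diet nonpregnant ones for 11 factors, or 25%, where 10.1% of all genes did so. These 11 were Heatr1, Wdr43, Wdr75, Nop14, Nhp2, Rrp12, Bop1, Nop2, Noc2l, Nolc1 and Ddx21, and no factor lay wholly below, as 9.51% of all genes did. Without Western diet postpartum replicate 2, 7 factors passed, namely Ddx21, Gnl3, Grwd1, Heatr1, Nolc1, Nop2 and Rrp12, among 472 genes of 15742 tested. That library was set apart for its low values of these same factors, so the gain follows in part from that choice. Leaving out any other library of these 2 groups left 0.

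Pregnancy on the control diet moved no factor past the threshold in edgeR, DESeq2 or limma-voom, where edgeR called 0.239% of all genes in either direction. Fold changes were positive for 33 of the 44, or 75%, against 48.2% of all genes, with a median of 0.05 (log2) against -0.01. At an unadjusted p under 0.05, 5 factors were higher, namely Nhp2, Fbl, Polr1e, Nop58 and Nop2, where 6.44% of all genes were, and 0 were lower, where 6.04% were. Of the nonpregnant libraries of this diet, leaving out replicate 1 turned the 5 into 12, replicate 2 into 2 and replicate 3 into 3, and of the postpartum ones, leaving out replicate 1 or replicate 3 turned it into 3. The control diet postpartum libraries lay above the control diet nonpregnant ones for 7 factors, or 15.9%, where 8.12% of all genes did so. These were Utp15, Fbl, Dkc1, Nhp2, Rrp12, Nop2 and Nolc1, and Polr1a lay wholly below, as 8.96% of all genes did. Without the 2 control diet libraries that stand apart, the count of calls was still 0 and the median was 0.08 (log2).

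Averaged over the diets, 2 factors rose after pregnancy, Rrp12 and Nhp2, where 1.03% of all genes rose, and none fell, where 0.75% of all genes did. At an unadjusted p under 0.05, 14 were higher, where 9.08% of all genes were, and 0 lower, where 8.5% were. Positive fold changes were seen for 37 of 44 factors, or 84.1%, against 49.6% of all genes, and the median was 0.08 (log2). All 6 postpartum libraries lay above all 6 nonpregnant ones for Rrp12, Nop2 and Nolc1, or 6.82% of the factors, where 0.821% of all genes did so, and none lay wholly below, as 0.711% of all genes did. The 2 calls were also made without the control diet libraries that stand apart. With 1 library left out the count ran from 0 to 8. Both calls were lost without Western diet postpartum replicate 1, Western diet nonpregnant replicate 2 or control diet nonpregnant replicate 3. Nhp2 was also lost without Western diet postpartum replicate 3, Western diet nonpregnant replicate 3 or control diet nonpregnant replicate 2. Leaving out Western diet postpartum replicate 2 gave 8, namely Ddx21, Gnl3, Grwd1, Nhp2, Nolc1, Nop2, Nop58 and Rrp12. Calls over all genes then became 567 of 15742, against 276 of 15476 with all libraries. These comparisons share libraries with one another, so their counts are not independent.

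**Figure D2:**
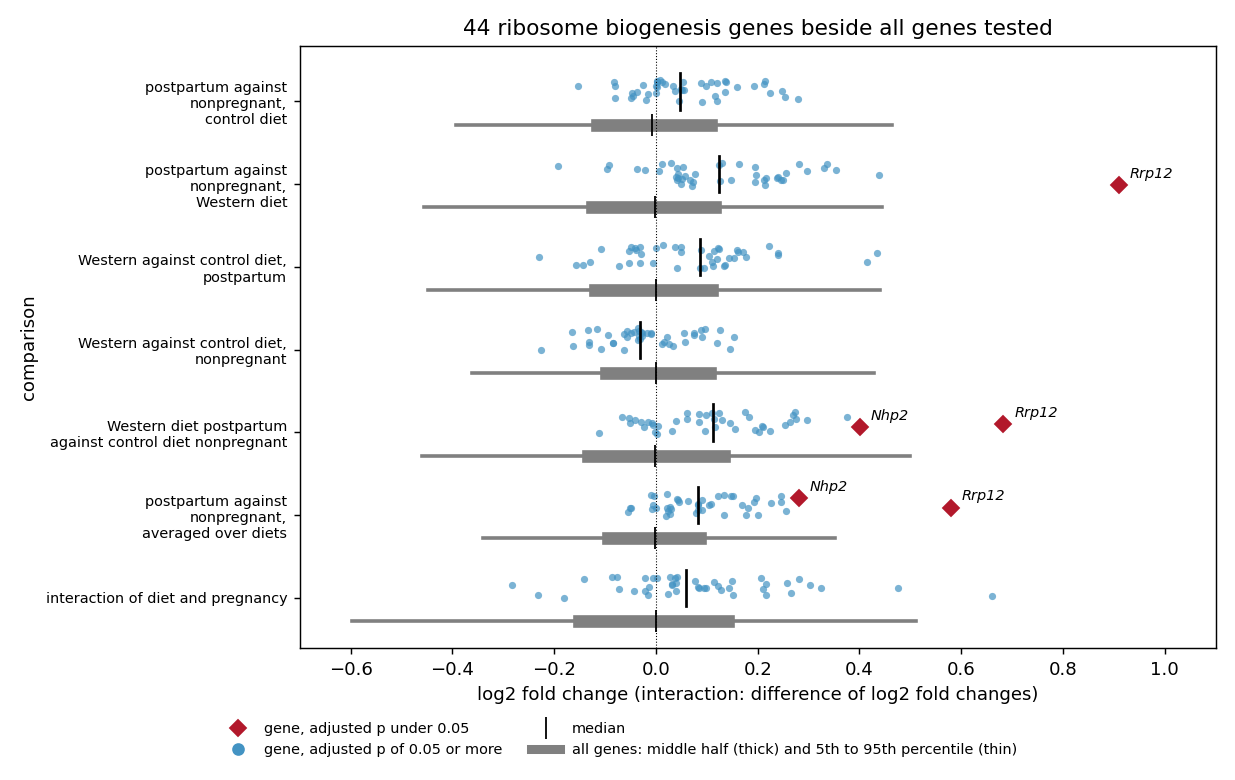
Log2 fold change of each of the 44 factors in the 7 comparisons (points, with diamonds for an adjusted p under 0.05), with a bar at the median, above the spread of all 15476 genes tested (thick bar, middle 50%, and thin line, 5th to 95th percentile). The median of the factors lies at 0.12 for pregnancy on the Western diet and -0.03 for diet in nonpregnant hearts.

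Diet alone moved no factor past the threshold in either pregnancy state with edgeR, DESeq2 or limma-voom. In postpartum hearts, where 0.879% of all genes passed, 28 of 44 factors had positive fold changes for Western against control diet, against 49.9% of all genes, with a median of 0.09 (log2). Without adjustment, 7 were higher at p under 0.05, where 7.83% of all genes were, and Polr1e was lower, where 6.77% were. Of the Western diet libraries, leaving out replicate 1 or replicate 3 turned the 7 into 2 and replicate 2 into 13, and of the control diet libraries, leaving out replicate 1 turned it into 2, replicate 2 into 3 and replicate 3 into 4. Wdr43, Nop10, Wdr12, Nop16, Ncl and Npm1 lay above in every Western diet library, or 13.6% of factors against 9.86% of all genes, and Utp15 and Utp20 lay below, as 9.28% of all genes did. Without Western diet postpartum replicate 2, Gnl3, Rrp12 and Utp14a passed, among 490 genes of 15742 tested. In nonpregnant hearts, where 0.0582% of all genes passed, 16 of 44 fold changes were positive, against 49.9% of all genes, with a median of -0.03. At an unadjusted p under 0.05 no factor was higher, where 4.63% of all genes were, and Polr1a was lower, where 4.95% were. Utp14a, Dkc1, Nhp2 and Wdr12 lay above in every Western diet library, where 6.92% of all genes did, and Polr1a lay below, where 7.84% did. Without control diet nonpregnant replicate 1, the library with high values for many factors, 30 of 44 were positive and the median was 0.04.

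Western diet postpartum hearts set against control diet nonpregnant hearts combine both differences. Nhp2 and Rrp12 rose, 2 of 44, where 1.45% of all genes rose, and no factor fell, where 1.18% of all genes did. Positive fold changes were seen for 33 factors, or 75%, against 49.6% of all genes. Without adjustment, 15 were higher at p under 0.05, where 9.71% of all genes were, and 0 lower, where 8.45% were. Of the postpartum libraries here, leaving out replicate 1 turned the 15 into 6 and replicate 3 into 7, and of the nonpregnant ones, leaving out replicate 2 turned it into 7 and replicate 3 into 9. Utp14a, Fbl, Nhp2, Nop10, Rrp12, Wdr12, Nop2, Noc2l and Nolc1 lay wholly above, where 10.3% of all genes did, and none wholly below, where 9.89% did. Leaving out Western diet postpartum replicate 2 gave 9 calls, while calls over all genes became 764 of 15742, against 406 of 15476 with all libraries. Leaving out replicate 1 or replicate 3 of that group, or control diet nonpregnant replicate 2, gave 0, and leaving out control diet nonpregnant replicate 3 gave Nhp2 alone. The test of the interaction, whether pregnancy acted differently on the 2 diets, passed for no factor, as for 0% of all genes, with edgeR and limma-voom. DESeq2 also called no factor, and at an unadjusted p under 0.05 Rrp12, Nop16 and Gnl3 had positive interactions, where 5.12% of all genes did, and Dkc1 a negative one, where 3.86% did. The interaction was positive for 31 of 44, against 50.2% of all genes, with a median of 0.06 (log2). On the Western diet, leaving out postpartum replicate 2 turned the 3 positive ones into 10, postpartum replicate 3 into 1 and nonpregnant replicate 1 into 5.

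**Figure D3:**
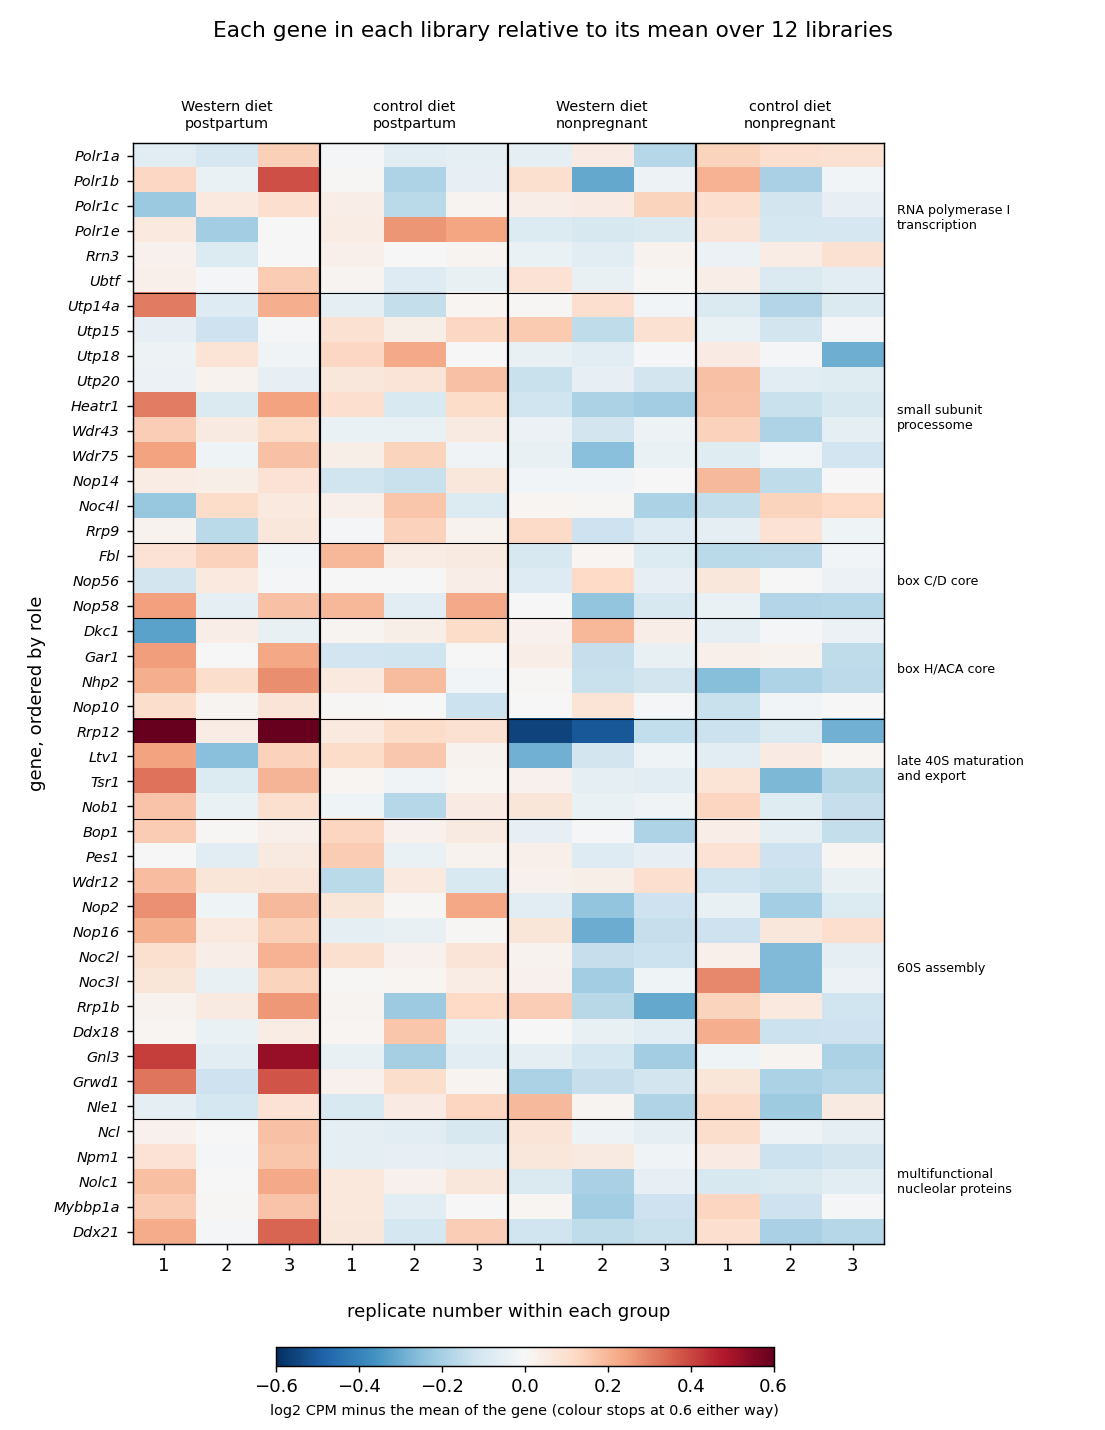
Log2 CPM of each factor in each library minus the mean of that factor over the 12 libraries, ordered by role, with colour limits at 0.6 either way. Replicates 1 and 3 of the Western diet postpartum group are above the mean for 35 and 37 of the 44 factors and replicate 2 for 20.

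Among the late 40S factors, which mature the small subunit and take it to the cytoplasm, Rrp12 was the one that passed the test. The gene lies at chr19:41862852-41896153 on the minus strand of GRCm38. Rrp12 had 47.1, 29.2 and 45.3 CPM in the Western diet postpartum libraries, 29.4, 30.5 and 30.1 CPM in the control diet postpartum libraries, 19.2, 19.9 and 25.5 CPM in the Western diet nonpregnant libraries and 25.9, 26.6 and 23.1 CPM in the control diet nonpregnant libraries. All 6 postpartum hearts were above all 6 nonpregnant hearts, and 2 of the 3 Western diet postpartum hearts were far above the third, which lay level with the control diet postpartum hearts. Rrp12 rose after pregnancy on the Western diet by 0.91 ± 0.15 (log2 fold change ± SE, edgeR adjusted p = 0.0271). This call was lost without Western diet postpartum replicate 1 or 3 or any 1 of the Western diet nonpregnant libraries, with adjusted p of 0.0633 to 0.118 and fold changes of 0.79 to 1.05. On the control diet the fold change of Rrp12 was 0.25 ± 0.15 (edgeR adjusted p = 0.529), and averaged over diets it was 0.58 ± 0.11 (edgeR adjusted p = 0.0190). The averaged call was lost without Western diet postpartum replicate 1, Western diet nonpregnant replicate 2 or control diet nonpregnant replicate 3, with adjusted p of 0.0543 to 0.0571.

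Between diets, Rrp12 differed by 0.43 ± 0.15 in postpartum hearts (edgeR adjusted p = 0.185) and by -0.23 ± 0.15 in nonpregnant hearts (edgeR adjusted p = 0.690). Its interaction was 0.66 ± 0.21 on the log2 scale, with an unadjusted p of 0.00762 and an adjusted p of 0.434. Without Western diet postpartum replicate 2, set apart for its low values of these factors, that interaction was 0.84 with an edgeR adjusted p of 0.0310. In Western diet postpartum against control diet nonpregnant hearts the fold change of Rrp12 was 0.68 ± 0.15 (edgeR adjusted p = 0.0303), and with both control diet libraries that stand apart left out it was 0.70 with an adjusted p of 0.0559.

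The other late 40S factors passed the test in no comparison. Ltv1, needed for the release of factors from the pre-40S subunit and the highest of this group per length, had 19.7, 14.1 and 18.4 CPM in Western diet postpartum hearts, 18.05, 18.7 and 16.9 CPM in control diet postpartum hearts, 13.7, 15.5 and 16.4 CPM in Western diet nonpregnant hearts and 16.0, 17.3 and 16.8 CPM in control diet nonpregnant hearts. Western diet postpartum replicate 2 again lay below its 2 companions, and the groups overlapped on both diets. Tsr1, a GTPase-like pre-40S factor, and Nob1, the nuclease that makes the last cut of 18S ribosomal RNA, had fold changes of 0.19 and 0.07 after pregnancy on the Western diet. Tsr1 shares 32.3% of its exonic bases with Srr on the opposite strand, and the sources do not give the strand setting of the counting, so its counts may hold reads of Srr.

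The box H/ACA proteins form the particles that convert uridine to pseudouridine. Nhp2, at chr11:51619735-51623714 on the plus strand, had 19.3, 17.9 and 20.2 CPM in Western diet postpartum hearts, 17.3, 19.0 and 16.5 CPM in control diet postpartum hearts, 16.7, 15.1 and 15.4 CPM in Western diet nonpregnant hearts and 13.9, 14.6 and 14.9 CPM in control diet nonpregnant hearts. On each diet the postpartum hearts lay wholly above the nonpregnant ones. The fold change of Nhp2 was 0.28 ± 0.08 on the Western diet (edgeR adjusted p = 0.121) and 0.28 ± 0.08 on the control diet (edgeR adjusted p = 0.173). Averaged over diets Nhp2 rose by 0.28 ± 0.06 (edgeR adjusted p = 0.0260), and Western diet postpartum against control diet nonpregnant hearts differed by 0.40 ± 0.08 (edgeR adjusted p = 0.0194). The averaged call held with DESeq2 and limma-voom and was lost without any 1 of 6 libraries, Western diet postpartum replicates 1 and 3, Western diet nonpregnant replicates 2 and 3, and control diet nonpregnant replicates 2 and 3, with adjusted p of 0.0541 to 0.0684 and fold changes of 0.26 to 0.29.

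**Figure D4:**
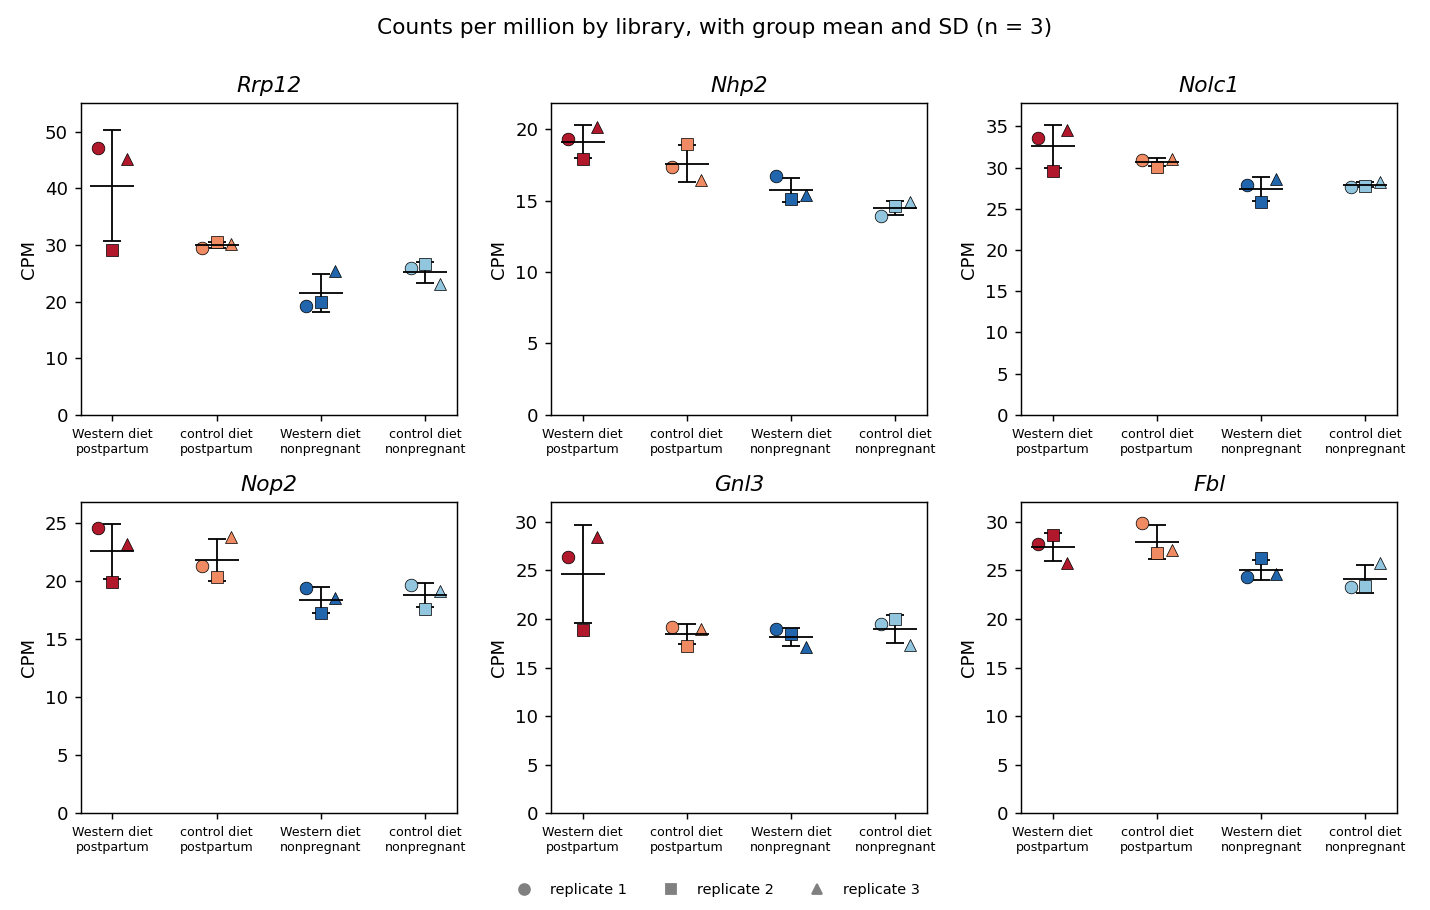
CPM of 6 factors in each library, with the mean and SD of each group (n = 3); the axis starts at 0. Rrp12 and Gnl3 are high in replicates 1 and 3 of the Western diet postpartum group, and Nhp2, Nop2 and Nolc1 lie higher in postpartum than in nonpregnant hearts on each diet.

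The other box H/ACA proteins passed the test in no comparison. Dkc1, dyskerin, the pseudouridine synthase itself, had 14.5, 18.6 and 17.5 CPM in Western diet postpartum hearts, 18.3, 18.5 and 19.5 CPM in control diet postpartum hearts, 18.4, 20.8 and 18.6 CPM in Western diet nonpregnant hearts and 17.4, 17.9 and 17.7 CPM in control diet nonpregnant hearts. Its fold change after pregnancy was -0.19 on the Western diet and 0.09 on the control diet, and the interaction of -0.28 ± 0.12 had an adjusted p of 0.530. Nop10, the highest of this group per length, had 37.8, 35.6 and 37.0 CPM in Western diet postpartum hearts, 35.4, 35.2 and 32.1 CPM in control diet postpartum hearts, 35.2, 37.2 and 34.9 CPM in Western diet nonpregnant hearts and 32.0, 34.8 and 35.1 CPM in control diet nonpregnant hearts, with overlap throughout between pregnancy states. The fold change of Gar1 after pregnancy was 0.21 on the Western diet and -0.05 on the control diet, neither past the threshold.

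The box C/D proteins form the particles that guide methylation of the ribose. Fibrillarin, Fbl, the methyltransferase, had 27.7, 28.6 and 25.8 CPM in Western diet postpartum hearts, 29.9, 26.8 and 27.0 CPM in control diet postpartum hearts, 24.3, 26.2 and 24.6 CPM in Western diet nonpregnant hearts and 23.2, 23.4 and 25.7 CPM in control diet nonpregnant hearts. The groups did not overlap on the control diet, where the fold change of Fbl was 0.21 ± 0.07 (edgeR adjusted p = 0.246), and overlapped on the Western diet, where it was 0.13 ± 0.07. Of the 2 scaffold proteins, Nop58 had fold changes of 0.24 on the Western and 0.25 on the control diet, and averaged over diets 0.25 ± 0.07 (edgeR adjusted p = 0.0928). Its partner Nop56 had 24.8, 27.9 and 26.6 CPM in Western diet postpartum hearts, 26.7, 26.8 and 27.5 CPM in control diet postpartum hearts, 25.4, 29.1 and 25.9 CPM in Western diet nonpregnant hearts and 28.03, 26.8 and 26.1 CPM in control diet nonpregnant hearts. The fold changes of Nop56 were within 0.03 of 0 in every comparison.

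None of the 12 factors of 60S assembly passed edgeR's test in any comparison. Their fold changes averaged over diets were positive for all 12, where 49.6% of all genes were, with a median of 0.09 (log2). Nop2, a methyltransferase of the large ribosomal RNA at chr6:125131909-125144753 on the plus strand, had 24.5, 19.9 and 23.2 CPM in Western diet postpartum hearts, 21.3, 20.3 and 23.8 CPM in control diet postpartum hearts, 19.4, 17.2 and 18.6 CPM in Western diet nonpregnant hearts and 19.6, 17.6 and 19.1 CPM in control diet nonpregnant hearts. All 6 postpartum hearts were above all 6 nonpregnant hearts, and the averaged fold change of Nop2 was 0.26 ± 0.06 (edgeR adjusted p = 0.0604). DESeq2 called Nop2 in this comparison.

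Gnl3, nucleostemin, a nucleolar GTPase also known from proliferating and stem cells, had 26.4, 18.9 and 28.5 CPM in Western diet postpartum hearts, 19.2, 17.3 and 18.9 CPM in control diet postpartum hearts, 19.0, 18.4 and 17.1 CPM in Western diet nonpregnant hearts and 19.5, 20.04 and 17.3 CPM in control diet nonpregnant hearts. Only replicates 1 and 3 of the Western diet postpartum group stood above the other libraries, and replicate 2 lay within them. The fold change of Gnl3 was 0.44 ± 0.12 after pregnancy on the Western diet (edgeR adjusted p = 0.121), -0.04 ± 0.12 after pregnancy on the control diet, and 0.41 ± 0.12 for diet in postpartum hearts (edgeR adjusted p = 0.119). Its interaction was 0.48 ± 0.17 with an edgeR adjusted p of 0.464. Without Western diet postpartum replicate 2, set apart for its low values of these factors, it was 0.62 with an edgeR adjusted p of 0.0472.

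Noc2l, which acts in intermediate steps of 60S assembly, was the highest of the 60S factors per length and had 37.0, 35.5 and 39.99 CPM in Western diet postpartum hearts, 37.0, 35.2 and 36.6 CPM in control diet postpartum hearts, 35.2, 31.4 and 31.7 CPM in Western diet nonpregnant hearts and 35.3, 28.8 and 33.3 CPM in control diet nonpregnant hearts. Postpartum values lay above on the Western diet by a narrow margin, with a fold change of 0.20, and overlapped on the control diet. Noc2l shares 20.9% of its exonic bases with Samd11 on the opposite strand.

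Wdr12, which forms a complex with Pes1 and Bop1, did not pass the test in any comparison. It had 21.1, 19.5 and 19.6 CPM in Western diet postpartum hearts, 16.6, 19.3 and 17.4 CPM in control diet postpartum hearts, 18.9, 19.0 and 19.9 CPM in Western diet nonpregnant hearts and 17.1, 16.9 and 18.02 CPM in control diet nonpregnant hearts. Western diet hearts lay above control diet hearts in each pregnancy state, with fold changes of Wdr12 of 0.18 ± 0.07 postpartum (edgeR adjusted p = 0.271) and 0.15 ± 0.07 nonpregnant (edgeR adjusted p = 0.529). Its partners Pes1 and Bop1 had fold changes between diets of -0.05 and -0.01 in postpartum hearts and of -0.03 each in nonpregnant hearts. Grwd1, a chaperone of a ribosomal protein, had a fold change of 0.35 ± 0.12 after pregnancy on the Western diet (edgeR adjusted p = 0.194). The remaining 60S factors, Nop16, Noc3l, Rrp1b, Ddx18 and Nle1, had averaged fold changes of 0.00 to 0.10.

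Of the multifunctional nucleolar proteins, Nolc1, a chaperone of small nucleolar ribonucleoproteins at chr19:46075863-46085528 on the plus strand, did not pass edgeR's test. Nolc1 had 33.5, 29.6 and 34.6 CPM in Western diet postpartum hearts, 30.9, 30.1 and 31.0 CPM in control diet postpartum hearts, 27.8, 25.8 and 28.6 CPM in Western diet nonpregnant hearts and 27.7, 27.8 and 28.3 CPM in control diet nonpregnant hearts. Every postpartum heart was above every nonpregnant heart. The fold change of Nolc1 was 0.25 ± 0.07 on the Western diet (edgeR adjusted p = 0.114), 0.14 ± 0.07 on the control diet (edgeR adjusted p = 0.440) and 0.19 ± 0.05 averaged over diets (edgeR adjusted p = 0.0604), and DESeq2 gave 0.0240 for the last. Ddx21, an RNA helicase that also binds ribosomal DNA, had 59.3, 50.7 and 64.8 CPM in Western diet postpartum hearts, 53.5, 47.3 and 56.3 CPM in control diet postpartum hearts, 46.8, 45.7 and 46.4 CPM in Western diet nonpregnant hearts and 54.6, 44.5 and 45.3 CPM in control diet nonpregnant hearts. Its groups were apart on the Western diet, with a fold change of 0.33 ± 0.10 (edgeR adjusted p = 0.145), and overlapped on the control diet.

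The 2 most abundant of these proteins per length, Npm1 and Ncl, also did not pass the test. Npm1 had 124, 116 and 131 CPM in Western diet postpartum hearts, 112, 113 and 112 CPM in control diet postpartum hearts, 122, 121 and 115 CPM in Western diet nonpregnant hearts and 121, 107 and 108 CPM in control diet nonpregnant hearts. The postpartum hearts of the Western diet were above those of the control diet, by 0.14 ± 0.06 (log2, edgeR adjusted p = 0.333), and the pregnancy states overlapped on each diet. Ncl had the same fold change of 0.14 for diet in postpartum hearts (edgeR adjusted p = 0.333) and -0.01 for pregnancy averaged over diets. Mybbp1a, which binds MYB and acts in ribosomal RNA processing, had 0.22 after pregnancy on the Western diet and 0.00 on the control diet.

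The small subunit processome is the large particle that forms on the precursor RNA around the U3 small nucleolar RNA. Of its 10 factors none passed the test in any comparison, 9 had positive fold changes after pregnancy on each diet, against 49.3% of all genes on the Western and 48.2% on the control diet, and the role's median was 0.07 (log2) on the Western and 0.05 on the control diet. Heatr1, a long HEAT-repeat protein of the early particle, had 18.2, 13.8 and 17.4 CPM in Western diet postpartum hearts, 15.8, 13.8 and 15.9 CPM in control diet postpartum hearts, 13.5, 12.9 and 12.7 CPM in Western diet nonpregnant hearts and 16.5, 13.4 and 13.8 CPM in control diet nonpregnant hearts. Its fold change on the Western diet was 0.34 ± 0.11 (edgeR adjusted p = 0.178), again with replicate 2 lowest. Utp14a had 20.3, 15.5 and 19.0 CPM in Western diet postpartum hearts, 15.7, 14.8 and 16.5 CPM in control diet postpartum hearts, 16.4, 17.5 and 16.2 CPM in Western diet nonpregnant hearts and 15.4, 14.5 and 15.4 CPM in control diet nonpregnant hearts. The nonpregnant groups did not overlap between diets, with a fold change of Utp14a of 0.15 ± 0.09 (edgeR adjusted p = 0.670), and 11.5% of its exonic bases overlap a gene on the other strand. Rrp9, a U3-specific protein and the highest of this group per length, had 23.4, 20.7 and 24.2 CPM in Western diet postpartum hearts, 23.02, 25.4 and 23.4 CPM in control diet postpartum hearts, 25.03, 21.2 and 21.9 CPM in Western diet nonpregnant hearts and 22.2, 24.5 and 22.7 CPM in control diet nonpregnant hearts, with overlap of all groups. Of the remaining processome factors, Wdr75 and Utp18 had averaged fold changes of 0.18 and 0.12, Wdr43, Utp20, Noc4l and Utp15 lay between 0.02 and 0.09, and Nop14 had -0.01.

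The RNA polymerase I factors, at the head of the pathway, passed the test in no comparison. Their fold changes averaged over diets went both ways, with 3 of 6 positive and a median of 0.01. Rrn3, the highest of them per length, had 55.1, 51.0 and 53.9 CPM in Western diet postpartum hearts, 55.2, 53.9 and 54.6 CPM in control diet postpartum hearts, 52.5, 51.5 and 54.8 CPM in Western diet nonpregnant hearts and 52.7, 55.7 and 57.6 CPM in control diet nonpregnant hearts. The largest catalytic subunit, Polr1a, had 64.0, 62.3 and 73.9 CPM in Western diet postpartum hearts, 66.2, 63.9 and 64.5 CPM in control diet postpartum hearts, 64.3, 69.2 and 59.4 CPM in Western diet nonpregnant hearts and 73.3, 71.6 and 71.2 CPM in control diet nonpregnant hearts. Control diet nonpregnant hearts were above both neighbouring groups in every library, and the fold change of Polr1a was -0.15 ± 0.07 for pregnancy on the control diet (edgeR adjusted p = 0.401) and -0.16 ± 0.07 for diet in nonpregnant hearts (edgeR adjusted p = 0.494). Polr1e, a smaller subunit, had 18.3, 15.2 and 17.6 CPM in Western diet postpartum hearts, 18.1, 21.1 and 20.7 CPM in control diet postpartum hearts, 16.6, 16.5 and 16.5 CPM in Western diet nonpregnant hearts and 18.6, 16.3 and 16.4 CPM in control diet nonpregnant hearts. It was highest in 2 of the control diet postpartum hearts, with fold changes of 0.22 ± 0.09 for pregnancy on the control diet (edgeR adjusted p = 0.307) and -0.23 ± 0.09 for diet in postpartum hearts (edgeR adjusted p = 0.233). Ubtf, which opens and marks active ribosomal DNA, and Polr1c, a subunit shared with RNA polymerase III, had averaged fold changes of 0.02 and -0.05, and Polr1b had 0.24 after pregnancy on the Western diet and -0.08 on the control diet.

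The promoters of Nhp2, Nolc1 and Nop2, the factors with the smallest p values for pregnancy averaged over diets that have an entry in the RefSeq promoter table of GRCm38.p6, are shown because Nhp2 rose in that comparison and the fold changes of all 3 were positive on each diet, although Nolc1 and Nop2 did not pass edgeR's test. Each window holds 250 bases before and 50 after the annotated start, on the plus strand. Capitals mark CACGTG, the E-box to which MYC and related factors bind, a palindrome that reads alike on both strands. The windows are chr11:51619523-51619822 for Nhp2, chr19:46075597-46075896 for Nolc1 and chr6:125131633-125131932 for Nop2.
Nhp2: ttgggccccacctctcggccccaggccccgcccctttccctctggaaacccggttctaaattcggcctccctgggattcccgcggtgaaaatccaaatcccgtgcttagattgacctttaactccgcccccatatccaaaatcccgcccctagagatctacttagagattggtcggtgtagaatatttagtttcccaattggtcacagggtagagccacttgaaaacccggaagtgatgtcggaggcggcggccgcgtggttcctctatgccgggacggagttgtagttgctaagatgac
Nolc1: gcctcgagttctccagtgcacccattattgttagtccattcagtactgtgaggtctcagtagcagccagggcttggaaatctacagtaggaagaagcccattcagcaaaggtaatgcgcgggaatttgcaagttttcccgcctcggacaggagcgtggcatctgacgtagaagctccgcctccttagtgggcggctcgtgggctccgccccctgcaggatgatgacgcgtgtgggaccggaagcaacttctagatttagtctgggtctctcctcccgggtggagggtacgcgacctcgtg
Nop2: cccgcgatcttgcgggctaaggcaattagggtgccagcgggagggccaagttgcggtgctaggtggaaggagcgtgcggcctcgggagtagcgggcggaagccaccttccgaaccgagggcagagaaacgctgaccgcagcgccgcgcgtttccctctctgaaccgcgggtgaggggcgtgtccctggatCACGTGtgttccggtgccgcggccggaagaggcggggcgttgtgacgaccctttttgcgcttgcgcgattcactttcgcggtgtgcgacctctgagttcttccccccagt
In this window Nop2 has the E-box 60 bases before the start, and Nhp2 and Nolc1 do not have these letters. Of the 40 factors with a window, 11 had at least 1 such E-box, or 27.5%, against 2187 of 27025 genes with a window, or 8.1%. These were Grwd1, Ltv1, Mybbp1a, Nle1, Nop2, Pes1, Rrn3, Tsr1, Utp18, Utp20 and Wdr43, and Rrn3 had 2. The windows of the factors held 59.8% G and C on average against 53.8% in all windows, which alters how often a motif of this makeup occurs, and the part of base composition in the difference was not tested. Of the 2 factors called for pregnancy, Nhp2 does not have this motif in its window.

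Beyond these 44, further genes of the pathway were examined as described groups. Of 96 other ribosome biogenesis factors none passed edgeR's test in any of the 7 comparisons, while at an unadjusted p under 0.05 16 were higher and 0 lower after pregnancy on the Western diet, where 8.12% and 6.62% of all genes were. On the control diet 2 were higher and 2 lower, where 6.44% and 6.04% of all genes were. DESeq2 called Sbds higher for diet in postpartum hearts and Nol12 higher for pregnancy averaged over diets, and limma-voom called none. Positive fold changes were seen for 65 of 96 on the Western diet and 66 of 96 on the control diet, against 49.3% and 48.2% of all genes. The medians were 0.07 and 0.05 (log2). Among 79 cytosolic ribosomal proteins, which these factors help build into subunits, 5 rose in Western diet postpartum against control diet nonpregnant hearts, where 1.45% of all genes rose, among them Rps28 by 0.33, Rpl36 and Rps19 by 0.27 each, and Rps15 by 0.25 on the log2 scale (edgeR adjusted p of 0.0120 to 0.0331), and 0 fell. Of the 79, 0 passed for pregnancy on either diet with edgeR, and DESeq2 called 1 on the Western diet. At an unadjusted p under 0.05, 5 were higher on the Western diet, where 8.12% of all genes were. On the control diet 2 were higher, where 6.44% of all genes were, and 1 lower, where 6.04% were. Fold changes of the 79 were positive for 63 on the Western diet and 69 on the control diet, against 49.3% and 48.2% of all genes. The medians were 0.03 and 0.05 (log2). Averaged over diets, 69 were positive, against 49.6% of all genes, with a median of 0.05. At an unadjusted p under 0.05, 14 were then higher and 0 lower, where 9.08% and 8.5% of all genes were.

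Rps28 had 116, 117 and 109 CPM in Western diet postpartum hearts, 95.9, 99.3 and 99.7 CPM in control diet postpartum hearts, 103, 104 and 94.4 CPM in Western diet nonpregnant hearts and 87.8, 91.4 and 93.7 CPM in control diet nonpregnant hearts. The Western diet postpartum hearts were above all others, and the control diet nonpregnant hearts were the lowest group. Medians of the ribosomal proteins were 0.10 (log2) for diet in postpartum and 0.11 for diet in nonpregnant hearts, against 0.09 and -0.03 for the 44 factors. For diet, 78 of 79 were positive in postpartum and 77 in nonpregnant hearts, against 49.9% of all genes in each. At an unadjusted p under 0.05, 26 and 32 were higher, where 7.83% and 4.63% of all genes were, and 0 passed edgeR's test in either state.

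Myc, the transcription factor known to drive ribosome biogenesis in many cells, had 3.02, 8.63 and 6.72 CPM in Western diet postpartum hearts, 2.79, 3.92 and 2.24 CPM in control diet postpartum hearts, 2.28, 1.97 and 2.92 CPM in Western diet nonpregnant hearts and 4.04, 2.40 and 1.68 CPM in control diet nonpregnant hearts. All 3 Western diet postpartum hearts were above the Western diet nonpregnant ones, and the highest value lay in replicate 2, the library in which most of the 44 factors were lowest of their group. The fold change of Myc after pregnancy on the Western diet was 1.35 (edgeR adjusted p = 0.111), for diet in postpartum hearts 1.04 (adjusted p = 0.186) and for Western diet postpartum against control diet nonpregnant hearts 1.15 (adjusted p = 0.105). For pregnancy on the control diet Myc had 0.11, for diet in nonpregnant hearts -0.19 and for the averaged comparison 0.73, and its interaction of 1.24 had an adjusted p of 0.513. DESeq2 called Myc for pregnancy on the Western diet. Of the 12 tested genes of the MYC network 0 passed with edgeR, and 3 were higher and 1 lower at an unadjusted p under 0.05 for pregnancy on the Western diet, against 8.12% and 6.62% of all genes.

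In nucleotide synthesis, which supplies the building blocks of ribosomal RNA, 2 of 27 genes rose after pregnancy on the Western diet, where 0.355% of all genes rose, and 0 fell, where 0.233% did. Uck2, uridine-cytidine kinase of the pyrimidine salvage pathway, had 87.8, 51.1 and 72.3 CPM in Western diet postpartum hearts, 43.7, 39.6 and 49.6 CPM in control diet postpartum hearts, 24.9, 33.0 and 35.1 CPM in Western diet nonpregnant hearts and 31.6, 33.7 and 34.4 CPM in control diet nonpregnant hearts. As with Rrp12, all 6 postpartum hearts were above all nonpregnant hearts, and replicate 2 was the lowest Western diet postpartum library. Uck2 rose by 1.18 ± 0.16 on the Western diet (edgeR adjusted p = 0.0249) and by 0.80 ± 0.12 averaged over diets (edgeR adjusted p = 0.0100). Mthfd2, a mitochondrial enzyme of folate metabolism, had 10.6, 17.2 and 13.1 CPM in Western diet postpartum hearts, 4.32, 5.43 and 5.03 CPM in control diet postpartum hearts, 7.13, 7.46 and 4.75 CPM in Western diet nonpregnant hearts and 2.59 to 3.03 CPM in control diet nonpregnant hearts. It rose by 1.08 ± 0.18 after pregnancy on the Western diet (edgeR adjusted p = 0.0271) and by 1.47 ± 0.19 for diet in postpartum hearts (edgeR adjusted p = 0.00496). For pregnancy on the Western diet, 0 of all genes passed without Western diet postpartum replicate 3 or any 1 Western diet nonpregnant library. The calls of Uck2 and Mthfd2 in that comparison were therefore lost in each of these fits. With edgeR, 0 of 22 RNA polymerase III genes, 0 of 12 snoRNA host transcripts and 0 of 15 p53 target genes of ribosome stress passed for pregnancy on either diet, and DESeq2 called 1 of them, the p53 target Phlda3 on the control diet. At an unadjusted p under 0.05 on the Western diet these lists had 0 higher and 4 lower, 0 higher and 1 lower, and 0 in either direction, against the same shares of all genes.

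A heart library holds the RNA of many cell types, so fewer cells of a type and less RNA per cell cannot be told apart. For pregnancy on the Western diet, 1 marker of another cell type passed, Des of the smooth muscle and pericyte list, which cardiomyocytes also express, with a fold change of 0.39 (edgeR adjusted p = 0.0278). This call was lost without Western diet postpartum replicate 3 or any 1 Western diet nonpregnant library. The 12-gene list of Des summed to 3456 to 3912 CPM in Western diet postpartum hearts and 3081 to 3215 CPM in Western diet nonpregnant hearts. On the control diet, where 0.207% of all genes rose, 2 of 12 fibroblast markers rose, Col1a1 by 0.86 and Col1a2 by 0.75, and 3 of 12 macrophage markers, Cd68 by 0.80, C1qa by 0.52 and C1qb by 0.48 (edgeR adjusted p of 0.0340 to 0.0436). Dropping replicate 1 of the postpartum hearts, or replicate 2 of the nonpregnant ones, left 0 of all genes past the threshold. These marker calls were therefore lost in both fits. Dropping postpartum replicate 3, the library with high adipocyte transcripts, left 1 gene, as did dropping nonpregnant replicate 3, so at most 1 call held. Without nonpregnant replicate 1 it was 205 genes and without postpartum replicate 2 it was 55, against 37 with all libraries. Averaged over diets, the comparison in which Rrp12 and Nhp2 rose, Col1a1, Col1a2, Postn, Cd68, C1qa, C1qb, Des and the proliferation gene Birc5 rose and Myl2 of cardiomyocytes fell. Fibroblast markers summed to 2345 to 2799 CPM in postpartum and 1908 to 2622 CPM in nonpregnant hearts, and macrophage markers to 366 to 432 CPM in postpartum and 286 to 382 CPM in nonpregnant hearts. For Western diet postpartum against control diet nonpregnant hearts, 3 of 12 endothelial markers rose, Pecam1, Fabp4 and Cldn5, with C1qb, Pdgfra and Des, and Pln and Cenpf fell. Endothelial markers summed to 1885 to 2042 CPM in Western diet postpartum and 1569 to 1604 CPM in control diet nonpregnant hearts. No marker was at 0 in all libraries, while 9 of 12 lymphocyte and 5 of 8 neutrophil markers stayed under 1 CPM in every library. Of 14 proliferation genes, 0 were higher at an unadjusted p under 0.05 for pregnancy on the Western diet, where 8.12% of all genes were. On the control diet 11 were, where 6.44% of all genes were, and none passed after adjustment in either. Fold changes were positive for 13 of 14 on each diet, against 49.3% and 48.2% of all genes, with medians of 0.43 and 1.32 (log2). Some of these genes were barely detected. In control diet nonpregnant replicate 3 they ran from Bub1 with 0.05 CPM to Cenpf with 50.65 CPM, and Cdk1 and Ccnb1 had 0.14 CPM each. Mki67 had 8.89, 2.35 and 2.13 CPM in control diet nonpregnant hearts and 15.4, 8.49 and 9.09 CPM in control diet postpartum hearts. Averaged over diets, 11 of the 14 were higher at an unadjusted p under 0.05, where 9.08% of all genes were. The part of these cell types in the results for the 44 factors was not tested.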

How the data were processed

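Heart RNA (Qiagen RNeasy) went into NEBNext Ultra RNA libraries, per the labels' protocols. The deposited values are read counts per gene, made by the authors; STAR 2.5.2b, Subread 1.5.2, FastQC and the GRCm38 build are named in the submitters' processing notes. The sources used here give no read length, strand setting or annotation release. Replicates were numbered in accession order.

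Genes were kept by filterByExpr (at least 10 counts, total 15), scaled by TMM and tested in 1 model of all 12 libraries with edgeR 4.0.16 (quasi-likelihood F test, R 4.3.3), with Benjamini-Hochberg adjustment over 15476 genes and a threshold of 0.05. Each SE was taken as the absolute log2 fold change divided by the root of its F value. DESeq2 1.42.0 and limma-voom 3.58.1 were alternatives. The scripts were also tested on simulated data, which were built from the means and spread fitted to these libraries. Positions are from GENCODE M21 (GRCm38).

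The 44 factors and all lists were chosen with earlier results of these data known. Per-library values are given for factors called in a comparison, those with the 3 smallest p in each, the highest per length of each role, and some factors called only without 1 library, chosen after their values were seen. The numbers in the titles of postpartum libraries all come before those of nonpregnant libraries on both diets, so pregnancy and this order cannot be told apart. Values of some genes in the lists are not reported here.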

Additional observations from a re-analysis of the deposited data

How the results depend on the processing

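No paired analysis was possible because each library has a number of its own in its title and the labels give no replicate number that groups share. The replicate numbers used here were given in accession order and pair nothing. For pregnancy on the Western diet the count of factors called was 1, and became 3 with no filter on low counts, 2 with DESeq2, 0 when only the groups compared were fitted, and 0 to 7 when 1 library was left out. For diet in postpartum hearts it was 0, and became 2 with no filter and 0 to 3 with 1 library left out. For Western diet postpartum against control diet nonpregnant hearts it was 2, and became 4 with no filter, 1 with robust dispersions, 0 with only the groups compared, and 0 to 9 with 1 library left out. For pregnancy averaged over diets it was 2, and became 5 with no filter, 4 with DESeq2 and 0 to 8 with 1 library left out. For the interaction it was 0, and became 1 with no filter and 0 to 2 with 1 library left out. The median fold change for diet in nonpregnant hearts was -0.03 (log2), became 0.038 without the control diet libraries that stand apart, and ran from -0.049 to 0.038 with 1 library left out. The causes of these shifts were not tested. For named factors, 302 values kept direction and side of the threshold, 26 lost it, 11 gained it and 0 reversed.

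Over all genes, calls for pregnancy on the control diet, pregnancy on the Western diet, diet postpartum, diet nonpregnant, both together, averaged and interaction were 37, 91, 136, 9, 406, 276 and 0. With 1 library left out they ran from 0 to 205, 0 to 472, 30 to 490, 0 to 4, 87 to 764, 52 to 567 and 0 to 53, so the shares of all genes called move as well. With no filter they were 744, 933, 1048, 454, 1315, 1262 and 506, with DESeq2 184, 361, 456, 95, 779, 615 and 43, and with limma-voom 36, 76, 135, 6, 335, 284 and 0. With 3 libraries a group, a factor that did not pass may still differ.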
